A study of Mus musculus with 14 samples.

Results

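The 42 genes described here encode the non-collagen extracellular matrix and the enzymes that build and cut it. They were taken by gene name from a count table of 55335 mouse genes, and all 42 were found. By role they comprise 8 adhesive and matricellular glycoproteins, 6 proteoglycans, 10 proteins of elastic fibres and microfibrils, 6 basement membrane proteins, 4 enzymes or helpers of cross-linking and collagen processing, 5 proteases and 3 metalloproteinase inhibitors. The libraries came from bone marrow cells of Cdh5 CRE Rosa26 TdTomato mice, in which Cre under the promoter of the endothelial cadherin gene Cdh5 switches on a red fluorescent protein that stays on in the cell and its progeny. Cells negative for blood lineage markers and for CD45, the pan-leukocyte protein, and positive for TdTomato were sorted from all 4 groups. The groups were untreated (n = 4), total body irradiation with 500 cGy from a caesium source (TBI, n = 5), 20 µCi of radioimmunotherapy with a non-targeted IgG (IgG RIT, n = 3) and 20 µCi of CD45-targeted radioimmunotherapy (CD45 RIT, n = 2), in which an antibody carries a radionuclide, astatine-211 by the title of the series. Treated mice were harvested on day 8. The labels do not say whether a replicate was 1 mouse or a pool, so the p-values measure only the spread between these libraries, which may in part be technical. The comparisons ask how the matrix programme of these marrow cells differs 8 days after external and after antibody-borne irradiation.

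Extracellular matrix is laid down as a fibrillar scaffold of collagen and elastin, onto which adhesive glycoproteins, proteoglycans and the laminin network of basement membranes are assembled. Lysyl oxidases cross-link it, metalloproteinases and cathepsins cut it, and the TIMP proteins inhibit the metalloproteinases. In bone marrow, most of this matrix is made by mesenchymal stromal cells, osteoblasts and perivascular cells, with a contribution of the sinusoidal endothelium to its basement membrane.

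The smallest library, TBI replicate 6, held 16412779 counts and the largest, untreated replicate 1, 31077588, and a floor of 3 counts corresponded to 0.0965 to 0.183 CPM (counts scaled to a common library size). Of the genes in the table, 17700 were detected in CD45 RIT replicate 2, 20994 in its replicate 1 and at least 21660 in each of the other libraries. The 4 untreated libraries and TBI replicates 1, 3, 4 and 5 carry library numbers 1 to 9 in the labels, and TBI replicate 6 and all RIT libraries 10 to 16. What the numbers stand for is not given. Between RIT and untreated libraries, treatment and any effect that goes with these numbers cannot be told apart. Between RIT and TBI, only TBI replicate 6 shares the higher numbers. Blood cell markers moved with the groups: the summed level of 9 erythroid markers was 7728 to 14444 CPM in untreated libraries, 24358 to 173258 in TBI, where replicate 6 was the highest, 131429 to 139121 in IgG RIT and 47436 to 190868 in CD45 RIT. For 8 neutrophil markers it was 9713 to 12142 CPM in untreated, 79.3 to 1139.5 in TBI, 553 to 744 in IgG RIT and 5.23 to 14.5 in CD45 RIT, where Ngp was at 0. The part of these shifts in the results that follow was not tested. The label of endothelial cells was checked against 16 endothelial markers. Those with counts in at least 1 library of the group numbered 16 in untreated, 15 in TBI, 12 in IgG RIT and 10 in CD45 RIT. Cdh5 itself had at most 6 counts in any library and 0 in all 5 RIT libraries, and Tek, Stab2 and Sox17 were at 0 in both RIT groups. The summed endothelial level was 159 to 189 CPM in untreated, 37.8 to 134 in TBI, 28.1 to 43.9 in IgG RIT and 49.1 and 211 in CD45 RIT libraries. All 11 mesenchymal stromal markers, among them Cxcl12 and Lepr, had counts in every group. Their summed level was 1122 to 2567 CPM in untreated, 81.8 to 311 in TBI, 285 to 661 in IgG RIT and 22956 and 26870.3 in CD45 RIT libraries. Cxcl12 dominates this sum, which therefore does not describe each of the other markers. Osteoblast and osteocyte markers (9 of 9 with counts in each group) were summed at 768 to 1476, 177 to 318, 92.9 to 268 and 2256 and 9113 CPM, untreated again lying above both TBI and IgG RIT and CD45 RIT highest. The 6 fibroblast markers did not follow this order. Their sum was 41.8 to 82.7 CPM in untreated, 10.3 to 109 in TBI, 5.15 to 25.4 in IgG RIT and 8.49 and 67.6 in CD45 RIT, where Dpt and Pdpn were at 0. For 7 megakaryocyte and platelet markers it was 312 to 402 CPM in untreated, 48.1 to 87.1 in TBI, 65.0 to 110 in IgG RIT and 182 and 38.8 in CD45 RIT. The libraries are therefore named here by their sort and treatment, not as endothelium.

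Most matrix genes rose after CD45 RIT, while all members called after TBI or IgG RIT fell. In IgG RIT the share of members called, 21.1%, was not far from the 16.4% of all genes. In CD45 RIT, 35 of the 38 members that passed the filter on low counts rose against untreated and 0 fell, 34 lay above and 1 below every untreated library without overlap, and the members had a median log2 fold change of 4.18 over the 38 against -0.37 over all 21509 genes tested (edgeR quasi-likelihood test with Benjamini-Hochberg adjustment, adjusted p under 0.05). Over all tested genes 14.5% were called higher, 18.6% lower and 33.1% in either direction, while 17.5% lay above and 29.8% below without overlap. In TBI, 0 members rose and 16 fell, with a median of -1.85 against -0.16, where 0.921% of all genes were called higher, 3.38% lower and 4.31% in either direction. Without overlap with untreated, 1 member was higher in TBI and 21 lower, against 6.34% and 12.8% of all genes. In IgG RIT, 0 rose and 8 fell, with a median of -1.06 against -0.42, where 5.75% of all genes were called higher, 10.7% lower and 16.4% in either direction. Here 1 member was higher and 14 lower without overlap, against 15.6% and 27.4% of all genes. Setting Vcan, which was at 0 in all IgG RIT libraries, to its bound left this median at -1.06. Between IgG RIT and TBI 0 members were called by edgeR (0.242% of all genes, 0.0697% higher and 0.172% lower). Of the 38 members, 12 had an unadjusted p under 0.05, as did 3984 of all 21509 genes tested. DESeq2 called 5 members, and its share over all genes is not given here. Each of the 3 comparisons against untreated uses the same 4 untreated libraries. In bulk libraries like these, fewer cells of a type and less RNA per cell cannot be told apart, and the part that the share of stromal cells has in these changes was not tested.

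By group mean, 37 of the 38 members were highest in CD45 RIT, and 32 ranked untreated above both TBI and IgG RIT and below CD45 RIT. The lowest mean was in TBI for 26 members, in IgG RIT for 10, in untreated for 1 and in CD45 RIT for 1, Emilin2, the member that ran against the rest. Counts of called members depended on single libraries in part: 27 of the 35 CD45 RIT calls, 10 of the 16 TBI calls and 3 of the 8 IgG RIT calls were made whichever library was left out. Without CD45 RIT replicate 2, 28 members were called higher, and without TBI replicate 6, 14 members were called lower in TBI. The 38 members also passed the filter when the CD45 RIT libraries were set aside, so none entered through that group alone. The 4 that did not pass were Sparcl1, Eln, Fbln2 and Mfap5.

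**Figure D1:**
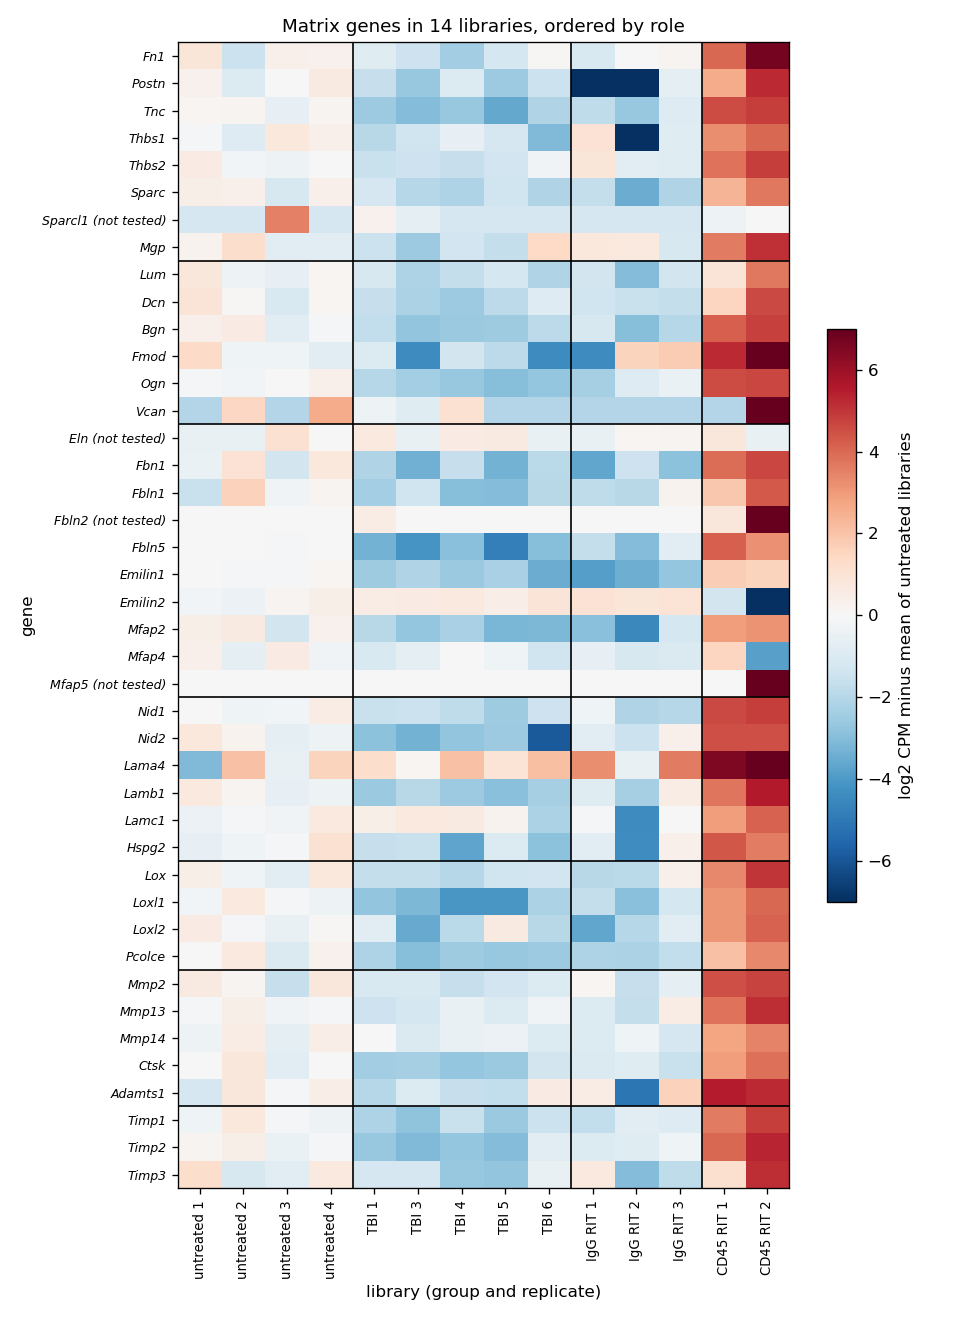
Colour map of the 42 matrix genes (rows, ordered by role and divided by black lines) in the 14 libraries (columns, divided by group), showing log2 CPM of each library minus the mean log2 CPM of the 4 untreated libraries. Red is above and blue below the untreated mean, values past the ends of the scale take the end colour, and 4 genes are marked as not tested. The 2 CD45 RIT columns are red for nearly every gene except Emilin2, while the TBI and IgG RIT columns are mostly blue.

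The 42 genes together took 0.162% to 0.323% of all counts in untreated libraries, 0.0736% to 0.11% in TBI, 0.0538% to 0.0916% in IgG RIT, and 1.23% and 2.83% in CD45 RIT replicates 1 and 2. Each of these ranges lies apart from the others except those of TBI and IgG RIT, which overlap. Sparc alone made up between 13.9% and 48.0% of the members' counts in a library. Scaled by gene length, Sparc led the untreated mean levels at 273 CPM per kb, followed by Mmp13 at 33.5, Dcn at 26.7, Emilin2 at 25.0 and Emilin1 at 22.1 CPM per kb. In CD45 RIT the order per length was Sparc (2274 CPM per kb), Mmp13 (816), Tnc (390.3), Dcn (326) and Timp2 (282). Dcn and Emilin2 did not differ beyond their spread in untreated libraries, where they ranged from 11.1 to 45.0 and from 18.3 to 32.7 CPM per kb.

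The adhesive and matricellular glycoproteins all rose after CD45 RIT: 7 of the 7 tested were called higher, with log2 fold changes from 3.06 to 5.72. Matricellular proteins sit in the matrix without building it and modulate how cells adhere to it. Sparc (osteonectin; ENSMUSG00000018593.13, chr11:55394500-55423183 on GRCm38), which binds calcium and collagen, had the highest mean CPM of the members over the 14 libraries. Sparc was measured at 1245, 1227, 428 and 1233 CPM in untreated replicates 1 to 4 and at 423, 234, 216, 366 and 219 CPM in TBI replicates 1, 3, 4, 5 and 6. Levels were 304, 85.6 and 224 CPM in the IgG RIT libraries and 5019 and 12209 CPM in the CD45 RIT libraries. Both CD45 RIT libraries lay above all others and all TBI and IgG RIT libraries below the untreated ones, but untreated replicate 3 was close to the highest TBI library. Its log2 fold change was 3.06 ± 0.53 (SE) in CD45 RIT (edgeR adjusted p = 0.00114), -1.83 ± 0.43 in TBI (adjusted p = 0.0324) and -2.34 ± 0.52 in IgG RIT (adjusted p = 0.0117). The TBI call for Sparc was lost when any of untreated replicates 1, 2 and 4 or TBI replicates 3, 4, 5 and 6 was left out, with adjusted p up to 0.0942.

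Tenascin C (Tnc; ENSMUSG00000028364.15, chr4:63959785-64047015), a large matricellular glycoprotein of healing and developing connective tissue, had the second highest mean CPM of the group. Tnc was measured at 129, 134, 79.0 and 135 CPM in untreated replicates 1 to 4 and at 20.2, 14.4, 18.5, 9.58 and 27.2 CPM in TBI replicates 1, 3, 4, 5 and 6. The IgG RIT libraries had 34.2, 18.2 and 61.7 CPM and the CD45 RIT libraries 2712 and 3356 CPM. No treated library fell within the untreated range, and means were 119 ± 26.9 CPM (SD, n = 4) in untreated and 3034 ± 455 CPM (SD, n = 2) in CD45 RIT. Tnc rose by 4.67 ± 0.45 on the log2 scale in CD45 RIT (edgeR adjusted p = 2.29e-05). It fell in TBI, with a log2 fold change of -2.73 ± 0.36 (adjusted p = 0.00204), and in IgG RIT, with -1.65 ± 0.42 (adjusted p = 0.0205). Leaving out IgG RIT replicate 1 or 2 ended the IgG RIT call, with adjusted p up to 0.0758.

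Fibronectin (Fn1), the integrin ligand on which many other matrix proteins assemble, had 2.78 to 14.1 CPM in untreated libraries, 1.43 to 8.32 in TBI and 3.70 to 9.14 in IgG RIT, which overlapped, and 130.0 and 847 CPM in the CD45 RIT libraries. Its log2 fold change in CD45 RIT was 5.72 ± 0.82 (adjusted p = 0.00033), the third largest of all members. Periostin (Postn) had 0, 0 and 161 counts in the IgG RIT libraries, 6.85 to 20.8 CPM in untreated and 83.2 and 513 CPM in CD45 RIT. Thrombospondins 1 and 2 (Thbs1, Thbs2), known as inhibitors of vessel growth, had log2 fold changes of 3.57 ± 1.24 (adjusted p = 0.0427) and 4.39 ± 0.58 (adjusted p = 0.000186) in CD45 RIT. Matrix Gla protein (Mgp), an inhibitor of calcification, had 4.33 ± 1.03 (adjusted p = 0.0074). The calls for Postn and Thbs1 rested on single libraries: leaving out CD45 RIT replicate 2 or any 1 untreated library ended each, with adjusted p up to 0.201 and 0.098. Sparcl1, the SPARC-like glycoprotein, had 68 counts in all 14 libraries, 60 of them in untreated replicate 3.

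Summed over the group, the level was 692 to 1771 CPM of the total count in untreated, 249 to 549 in TBI, 115 to 322 in IgG RIT and 5853 and 13738 in the CD45 RIT libraries. Per count of the 11 stromal markers, the group had 0.617 to 1.07 in untreated, 0.799 to 5.69 in TBI, 0.404 to 1.13 in IgG RIT and 0.255 and 0.511 in CD45 RIT.

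**Figure D2:**
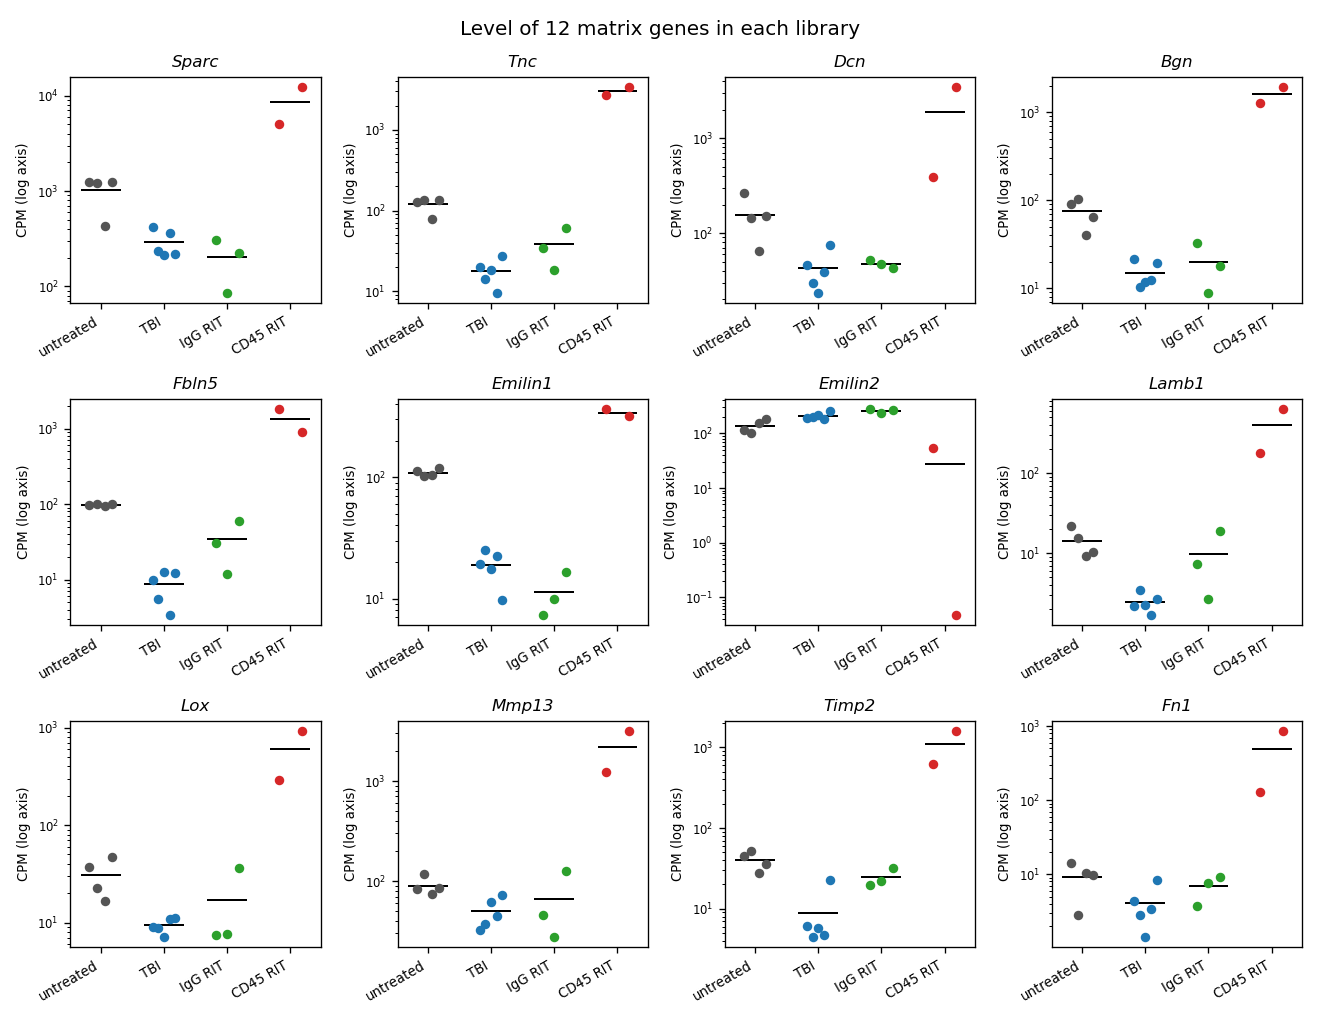
Level of 12 matrix genes in each library, in CPM on the TMM-scaled library size and on a log axis, by group; each point is a library and each bar the group mean. The CD45 RIT points lie above all others in 11 panels, with Sparc at 5019 and 12209 CPM, and below all others for Emilin2, at 55.0 and 0.0481 CPM.

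Of the 6 proteoglycans, 5 rose after CD45 RIT and 2, Bgn and Ogn, fell after TBI, while only Bgn was called in IgG RIT. Decorin (Dcn), biglycan (Bgn), lumican (Lum), fibromodulin (Fmod) and osteoglycin (Ogn) are small leucine-rich proteoglycans that bind collagen fibrils and set their diameter and spacing. Dcn (ENSMUSG00000019929.16, chr10:97479609-97518143) was measured at 263, 144, 65.1 and 150.1 CPM in untreated replicates 1 to 4 and at 45.8, 29.7, 23.6, 39.2 and 75.4 CPM in TBI replicates 1, 3, 4, 5 and 6. In the IgG RIT libraries it stood at 52.7, 47.4 and 43.3 CPM, and in the CD45 RIT libraries at 389 and 3419 CPM. Dcn was at 156 ± 81.4 CPM (SD, n = 4) in untreated and at 1904 ± 2142 CPM (SD, n = 2) in CD45 RIT, where the libraries differed 8.79-fold from each other. Its log2 fold change was 3.61 ± 0.68 in CD45 RIT (edgeR adjusted p = 0.002), and the call was lost without CD45 RIT replicate 2 (adjusted p = 0.109). In TBI it was -1.87 ± 0.55 (adjusted p = 0.0766) and in IgG RIT -1.70 ± 0.65 (adjusted p = 0.0912), neither called, although in TBI all but 1 library lay below every untreated library.

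Bgn (ENSMUSG00000031375.17, chrX:73483602-73495933) was measured at 90.4, 104, 40.4 and 65.1 CPM in untreated replicates 1 to 4 and at 21.4, 10.4, 11.8, 12.3 and 19.6 CPM in TBI replicates 1, 3, 4, 5 and 6. Levels were 32.4, 8.91 and 17.8 CPM in the IgG RIT libraries and 1275 and 1912 CPM in the CD45 RIT libraries. The untreated libraries lay above all TBI and IgG RIT libraries and far below both CD45 RIT libraries. Bgn rose in CD45 RIT, with a log2 fold change of 4.41 ± 0.49 (edgeR adjusted p = 5.46e-05), and fell in TBI, with -2.31 ± 0.39 (adjusted p = 0.00642), and in IgG RIT, with -1.93 ± 0.46 (adjusted p = 0.0155). Without IgG RIT replicate 2 or 3 the IgG RIT call was lost, with adjusted p up to 0.0532. Ogn was even within its groups, at 13.2 to 19.6 CPM in untreated, 1.83 to 3.68 in TBI and 364 and 385 in CD45 RIT. Its log2 fold changes were 4.61 ± 0.42 (adjusted p = 1.63e-05) in CD45 RIT and -2.57 ± 0.34 (adjusted p = 0.00204) in TBI. Ogn lies within Cenpp on the opposite strand, which had 16100 counts in all libraries against 16693 for Ogn. The library kit does not mark strand, so reads from a stretch shared by both genes could not be assigned by strand.

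Fmod had the largest rise of all members in CD45 RIT, with a log2 fold change of 7.58 ± 1.56 (adjusted p = 0.00331). It stood at 4.29, 1.32, 1.3 and 0.970 CPM in untreated, 0 to 0.814 in TBI, 0, 5.03 and 5.88 in IgG RIT and 63.4 and 696 CPM in CD45 RIT. Lum rose as well (2.81 ± 0.66, adjusted p = 0.00712), but not without CD45 RIT replicate 2 (adjusted p = 0.305). Versican (Vcan), the large chondroitin sulfate proteoglycan of the set, had at most 1.94 CPM outside CD45 RIT replicate 2, with 0 and 1146 counts in the CD45 RIT libraries and 0, 27, 0 and 56 in the untreated ones. It was not called (adjusted p = 0.0976).

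The summed level of the group was 175 to 530.2 CPM of the total count in untreated, 53.2 to 104 in TBI, 64.5 to 81.7 in IgG RIT and 1518 and 5369 in the CD45 RIT libraries. Per stromal marker count this was 0.137 to 0.320 in untreated, 0.287 to 0.995 in TBI, 0.116 to 0.286 in IgG RIT and 0.0661 and 0.200 in CD45 RIT.

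Of the 4 members with the largest rise in CD45 RIT outside chromosomes 8 and 18 (Fmod, Lama4, Fn1 and Adamts1), RefSeq promoter sequence on GRCm38.p6 was matched for Fmod and Adamts1, the latter encoding a secreted metalloproteinase that cuts proteoglycans such as versican. The 250 bases before each start site are shown because both genes were among the largest rises. Capitals mark matches, on either strand, to 6 motifs: the TATA box motif TATAAA, the AP-1 motif TGANTCA, the E-box CACGTG, the SMAD motif CAGACA, the GC box core GGGCGG and the TEAD motif ACATTCC.
Fmod (chr1:134037004-134037253, plus strand): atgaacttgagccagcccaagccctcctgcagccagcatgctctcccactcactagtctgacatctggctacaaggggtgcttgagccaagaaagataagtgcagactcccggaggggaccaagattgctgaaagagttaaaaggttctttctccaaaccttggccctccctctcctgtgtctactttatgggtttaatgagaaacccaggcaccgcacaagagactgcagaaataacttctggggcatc
Adamts1 (chr16:85803114-85803363, minus strand): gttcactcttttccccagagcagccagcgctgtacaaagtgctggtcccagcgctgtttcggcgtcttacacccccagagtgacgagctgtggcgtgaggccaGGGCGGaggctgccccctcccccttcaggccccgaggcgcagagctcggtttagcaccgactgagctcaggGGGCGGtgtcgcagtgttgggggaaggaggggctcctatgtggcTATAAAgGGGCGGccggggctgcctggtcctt

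The Fmod sequence held none of the 6 motifs. In Adamts1, GGGCGG began at positions -147, -76 and -25 relative to the start site, and TATAAA began at -32. Among all 32851 RefSeq promoter windows of the same set, which run from 250 bases before to 50 after a start site, 35.7% held GGGCGG and 13.6% held TATAAA. The shares were 21% for CAGACA, 7.81% for TGANTCA, 7.15% for CACGTG and 3.85% for ACATTCC. Of the 32 windows that matched 26 of the members, 19 held GGGCGG, 10 CAGACA, 7 TATAAA, 2 CACGTG, 2 ACATTCC and 1 TGANTCA. The median GC content was 57.7% over the 32 members' windows and 52.7% over all windows, and GGGCGG consists of these bases alone.

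The elastic fibre and microfibril proteins were split. Of the 7 tested, 5 rose in CD45 RIT, 4 fell in TBI and 3 in IgG RIT, while Emilin2 and Mfap4 went uncalled in all 3 comparisons. Fibulin 5 (Fbln5; ENSMUSG00000021186.9, chr12:101746565-101819055), which organises elastin into fibres, was the most abundant by mean CPM. Fbln5 was measured at 97.3, 100.4, 93.3 and 101 CPM in untreated replicates 1 to 4 and at 9.80, 5.49, 12.7, 3.42 and 12.4 CPM in TBI replicates 1, 3, 4, 5 and 6. The IgG RIT libraries had 30.8, 12.0 and 59.4 CPM and the CD45 RIT libraries 1802 and 904 CPM. The untreated libraries were tightly grouped at 93.3 to 101 CPM, all TBI and IgG RIT libraries were below them, and both CD45 RIT libraries were above. Fbln5 fell in TBI with a log2 fold change of -3.49 ± 0.48 (edgeR adjusted p = 0.00245), the largest fall of any member, and rose in CD45 RIT by 3.79 ± 0.57 (adjusted p = 0.000454). In IgG RIT it was not called (-1.53 ± 0.53, adjusted p = 0.0688), although the groups did not overlap.

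Emilin2 (ENSMUSG00000024053.11, chr17:71252172-71311978), an elastin microfibril interfacer, was the member with the opposite order. Emilin2 was measured at 116, 101, 154 and 179.8 CPM in untreated replicates 1 to 4 and at 194, 204, 213, 186 and 255 CPM in TBI replicates 1, 3, 4, 5 and 6. In the IgG RIT libraries it stood at 274, 240.3 and 265 CPM, and in the CD45 RIT libraries at 55.0 and 0.0481 CPM. The lowest TBI library was above the highest untreated library and IgG RIT was higher in mean than TBI, whereas the CD45 RIT libraries had 902 and 1 counts, below all others. With the 2 CD45 RIT libraries so unlike, the call was not made (edgeR adjusted p = 0.154), but with either of them alone Emilin2 was called lower than untreated (adjusted p = 5.62e-08 without replicate 1 and 0.0106 without replicate 2). Fits on only the 2 groups compared called Emilin2 higher than untreated in TBI (adjusted p = 0.0286) and in IgG RIT (adjusted p = 0.00257). Its relative Emilin1, which restrains TGF-β signalling in vessel walls, behaved like most members: 101 to 118 CPM in untreated, 9.68 to 25.0 in TBI, 7.35 to 16.4 in IgG RIT and 362 and 321 CPM in CD45 RIT. Emilin1 fell in TBI (-2.53 ± 0.28, adjusted p = 0.0012) and in IgG RIT (-3.28 ± 0.36, adjusted p = 0.000977), and both calls were made whichever library was left out. Its rise in CD45 RIT, 1.65 ± 0.34 (adjusted p = 0.0033), was the smallest of the called rises, and was not called without scaling factors (adjusted p = 0.0848).

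Fibrillin 1 (Fbn1), the backbone of microfibrils, and the microfibril-associated Mfap2 fell in both TBI (-2.58 ± 0.60, adjusted p = 0.0306, and -2.78 ± 0.61, adjusted p = 0.0242, in that order) and IgG RIT (-2.67 ± 0.73, adjusted p = 0.0274, and -2.53 ± 0.73, adjusted p = 0.0352, in that order). Leaving out untreated replicate 2 or 4 ended each of these 4 calls. Single other libraries also ended them: TBI replicates 1, 3 and 5 for Fbn1 in TBI, untreated replicate 1 and TBI replicates 3, 4, 5 and 6 for Mfap2 in TBI, IgG RIT replicates 1 and 3 for Fbn1 in IgG RIT, and untreated replicate 1 and IgG RIT replicates 1 and 2 for Mfap2 in IgG RIT, with adjusted p up to 0.121. Both genes rose in CD45 RIT, to 182 and 314 CPM for Fbn1 and 74.1 and 86.4 CPM for Mfap2. Fibulin 1 (Fbln1) rose in CD45 RIT (3.14 ± 0.90, adjusted p = 0.0189), a call lost without replicate 2 (adjusted p = 0.248). Fbln2 and Mfap5, both uncalled because they did not pass the filter, had 1 and 2239 and 0 and 1064 counts in the CD45 RIT libraries and at most 1 count in any other. Mfap4 had 52 and 0 counts in the CD45 RIT libraries, so that its direction turned on the library left out: without replicate 1 it was called lower than in untreated (edgeR adjusted p = 0.00152), IgG RIT (adjusted p = 0.00344) and TBI (adjusted p = 0.0023), and without replicate 2 higher than in IgG RIT (adjusted p = 0.0221) and TBI (adjusted p = 0.023). Mfap4 overlaps Mapk7 on the opposite strand, which had 6046 counts in all libraries against 314 for Mfap4. Elastin itself (Eln) had 18 counts in all 14 libraries.

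Summed over the group, the level was 433 to 508 CPM of the total count in untreated, 241 to 285 in TBI, 236 to 298 in IgG RIT and 1767 and 1519 in the CD45 RIT libraries. Per stromal marker count the group had 0.174 to 0.398 in untreated, 0.775 to 3.13 in TBI, 0.451 to 0.885 in IgG RIT and 0.0770 and 0.0565 in CD45 RIT. On the TMM-scaled library size, Emilin2 gave 210.2 of the mean summed level of 244 CPM in TBI and 259.6 of 315 CPM in IgG RIT.

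All 6 basement membrane genes rose in CD45 RIT, by 3.59 to 6.81 on the log2 scale. In TBI 3 of 6 fell (Lamb1, Nid1 and Nid2), and in IgG RIT 0 of 6 were called, with 1 (Nid1) at an unadjusted p under 0.05. Over all genes tested, 7097 of 21509 had such a p in IgG RIT. Laminins are trimers of an α, a β and a γ chain, and nidogens and perlecan tie them to the collagen IV network. The laminin β1 gene Lamb1 (ENSMUSG00000002900.16, chr12:31265234-31329644) was measured at 21.7, 15.6, 9.14 and 10.4 CPM in untreated replicates 1 to 4 and at 2.16, 3.42, 2.24, 1.69 and 2.65 CPM in TBI replicates 1, 3, 4, 5 and 6. Levels were 7.35, 2.64 and 19.0 CPM in the IgG RIT libraries and 178 and 629 CPM in the CD45 RIT libraries. TBI libraries were all below the untreated ones, IgG RIT libraries overlapped them, and CD45 RIT libraries were above. Lamb1 rose in CD45 RIT (4.82 ± 0.67, adjusted p = 0.00026) and fell in TBI (-2.55 ± 0.53, adjusted p = 0.019). The TBI call was lost without untreated replicate 1 or 2 or TBI replicate 1, 4 or 5, at adjusted p no higher than 0.0582.

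Nidogen 1 (Nid1; ENSMUSG00000005397.8, chr13:13437551-13512269) was measured at 8.59, 6.73, 7.27 and 12.0 CPM in untreated replicates 1 to 4 and at 2.76, 2.90, 2.43, 1.46 and 3.08 CPM in TBI replicates 1, 3, 4, 5 and 6. The IgG RIT libraries had 6.83, 1.89 and 2.05 CPM and the CD45 RIT libraries 212 and 242 CPM. Only 1 IgG RIT library reached the untreated range, and no TBI library did. Nid1 rose in CD45 RIT (4.71 ± 0.50, adjusted p = 3.9e-05) and fell in TBI (-1.77 ± 0.39, adjusted p = 0.0237), the latter call lost without untreated replicate 1 or 4 or TBI replicate 1, 3, 4 or 5, at adjusted p up to 0.0717. Nid2 showed the deepest TBI fall of the group, from 5.67 to 14.7 to 0.0717 to 1.42 CPM, a log2 fold change of -3.30 ± 0.59 (adjusted p = 0.00926). Nid2 overlaps Rtraf on the opposite strand, which had 30958 counts in all libraries against 9315 for Nid2. The part of shared reads in the Nid2 values was not tested.

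The laminin α4 gene Lama4, whose chain is typical of vessel walls, had the second largest rise of all members (6.81 ± 1.44, adjusted p = 0.00378), from 0 to 2.84 CPM in untreated to 65.3 and 226 CPM. The γ1 gene Lamc1 differed from the others after TBI: replicates 1, 3, 4 and 5 held 9.28 to 12.6 CPM, within or near the untreated range of 5.97 to 12.6 CPM, and replicate 6 held 1.65. Its log2 fold change was 3.59 ± 0.91 (adjusted p = 0.0106) in CD45 RIT and 0.17 ± 0.73 (adjusted p = 0.954) in TBI. Perlecan (Hspg2) rose in CD45 RIT (3.91 ± 1.14, adjusted p = 0.021), a call lost without untreated replicate 2 or 3, at adjusted p up to 0.055.

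The summed level of the group was 36.9 to 63.9 CPM of the total count in untreated, 8.96 to 24.8 in TBI, 7.28 to 42.2 in IgG RIT and 530.1 and 1128 in the CD45 RIT libraries. Per stromal marker count the levels were 0.0208 to 0.0386 in untreated, 0.0288 to 0.250 in TBI, 0.0256 to 0.0939 in IgG RIT and 0.0231 and 0.0420 in CD45 RIT, and the CD45 RIT values did not lie below the untreated ones in this group.

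**Figure D3:**
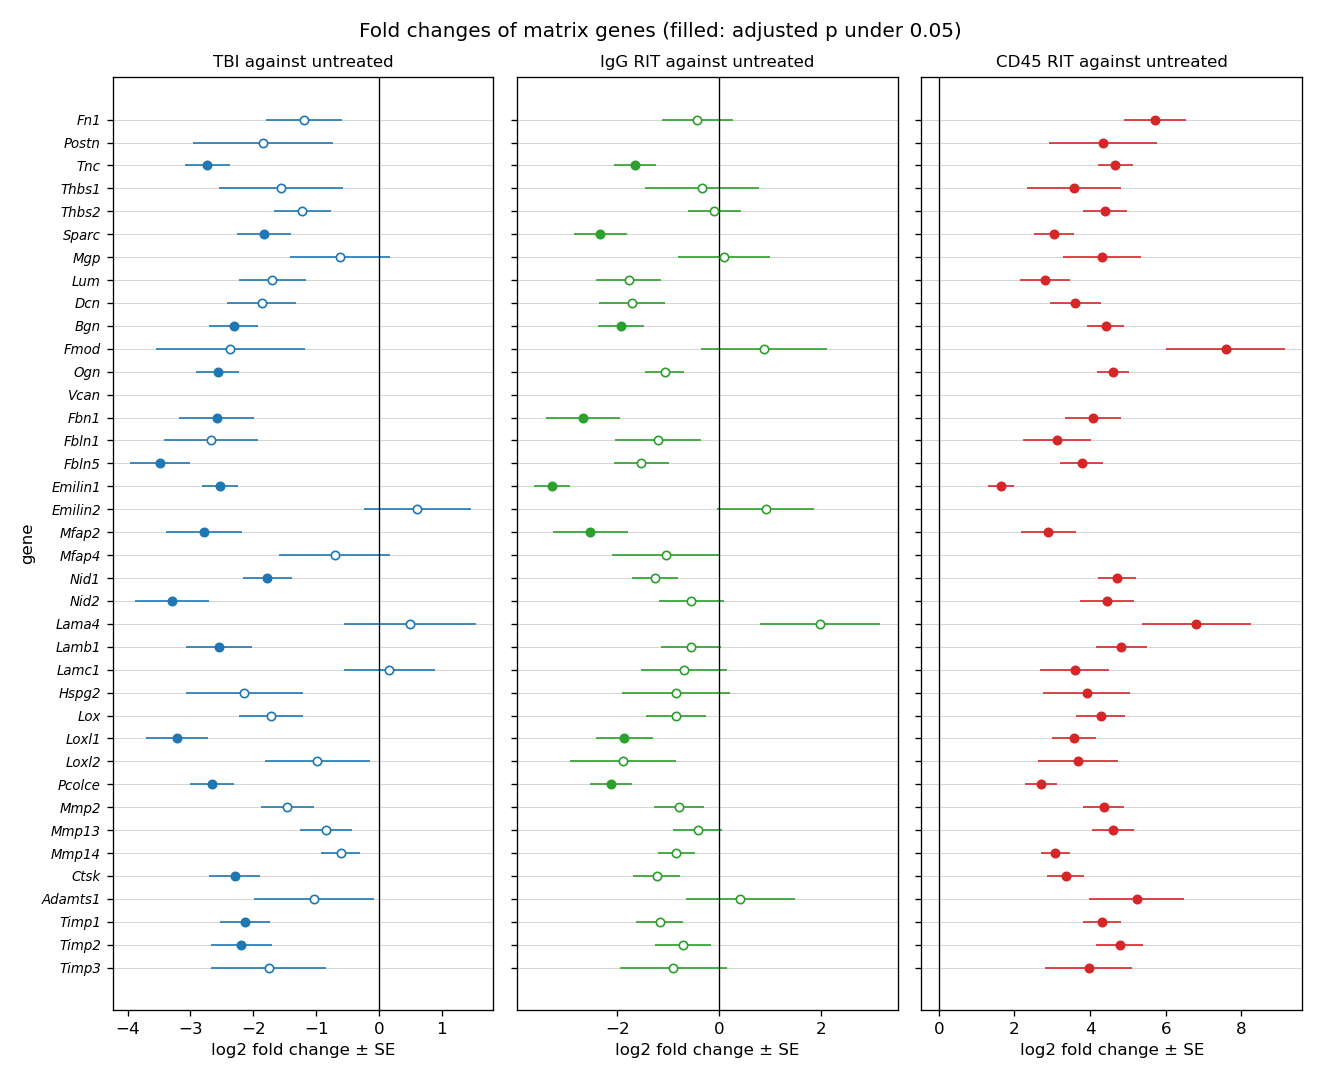
Log2 fold change against untreated, with its SE, of the 38 tested members (rows, ordered by role) in TBI (left), IgG RIT (middle) and CD45 RIT (right); filled points have an adjusted p under 0.05, and members without a point had counts too low for a fold change. All filled points lie left of 0 in TBI (16) and IgG RIT (8) and right of 0 in CD45 RIT (35); the 3 panels have different horizontal scales.

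All 4 genes of cross-linking and collagen processing rose in CD45 RIT, and 2 of them, Loxl1 and Pcolce, fell in TBI and in IgG RIT. Lysyl oxidase (Lox, ENSMUSG00000024529.14), which oxidises lysines of collagen and elastin so that they cross-link, was measured at 37.3, 22.8, 16.5 and 47.0 CPM in untreated replicates 1 to 4 and at 8.98, 8.74, 7.15, 10.9 and 11.3 CPM in TBI replicates 1, 3, 4, 5 and 6. In the IgG RIT libraries it stood at 7.41, 7.67 and 36.5 CPM, and in the CD45 RIT libraries at 289.9 and 915 CPM. IgG RIT replicate 3 lay within the untreated range, the other two were below it, and both CD45 RIT libraries were above. Lox rose in CD45 RIT (4.29 ± 0.65, adjusted p = 0.000468). In TBI its log2 fold change was -1.72 ± 0.51 (adjusted p = 0.079), not called although no TBI library reached the untreated ones, and DESeq2 called it (adjusted p = 0.0361).

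Pcolce (ENSMUSG00000029718.14, chr5:137605103-137613784), which enhances the removal of the procollagen C-propeptide, was measured at 57.2, 88.6, 27.2 and 68.9 CPM in untreated replicates 1 to 4 and at 12.6, 7.08, 10.0, 8.60 and 9.47 CPM in TBI replicates 1, 3, 4, 5 and 6. Levels were 12.6, 12.1 and 17.1 CPM in the IgG RIT libraries and 229 and 564 CPM in the CD45 RIT libraries. The libraries of every treatment lay outside the untreated range. Pcolce fell in TBI (-2.66 ± 0.35, adjusted p = 0.00198) and IgG RIT (-2.12 ± 0.41, adjusted p = 0.00643) and rose in CD45 RIT (2.71 ± 0.42, adjusted p = 0.000553), and each of these calls was made whichever library was left out. Loxl1, needed for elastic fibre upkeep, fell in TBI (-3.21 ± 0.49, adjusted p = 0.00411) and in IgG RIT (-1.87 ± 0.56, adjusted p = 0.0403). The IgG RIT call for Loxl1 was lost on leaving out any 1 of the 7 libraries, with adjusted p up to 0.132. Loxl1 and Loxl2 rose in CD45 RIT (3.58 ± 0.58, adjusted p = 0.000783, and 3.68 ± 1.06, adjusted p = 0.0194, in that order), and for Loxl2 the call was lost without CD45 RIT replicate 2 or untreated replicate 3, at adjusted p up to 0.0622.

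Summed over the group, the level was 70.5 to 165 CPM of the total count in untreated, 19.7 to 29.1 in TBI, 19.2 to 50.7 in IgG RIT and 463 and 1358 in the CD45 RIT libraries. Per stromal marker count the group had 0.0628 to 0.0820 in untreated, 0.0660 to 0.330 in TBI, 0.0675 to 0.0767 in IgG RIT and 0.0202 and 0.0505 in CD45 RIT. Both CD45 RIT values were below the untreated range on that scale, as were those of 77.5% of all tested genes taken singly.

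All 5 proteases rose in CD45 RIT, by 3.09 to 5.24 on the log2 scale. In TBI only Ctsk fell, and in IgG RIT 0 of the 5 were called, with 2 (Ctsk and Mmp14) at an unadjusted p under 0.05. Such a p was found in IgG RIT for 7097 of all 21509 genes tested. Mmp13 (ENSMUSG00000050578.10, chr9:7272514-7283331), a collagenase of bone and cartilage, was measured at 83.1, 116, 74.1 and 84.5 CPM in untreated replicates 1 to 4 and at 32.6, 37.4, 61.7, 44.8 and 73.2 CPM in TBI replicates 1, 3, 4, 5 and 6. The IgG RIT libraries had 45.3, 27.7 and 127 CPM and the CD45 RIT libraries 1234 and 3128 CPM. TBI replicate 6 nearly reached the untreated range, IgG RIT replicate 3 exceeded it, and both CD45 RIT libraries lay far above. Mmp13 rose in CD45 RIT (4.61 ± 0.55, adjusted p = 9.08e-05). It was not called in TBI (-0.84 ± 0.42, adjusted p = 0.32) or in IgG RIT (-0.42 ± 0.48, adjusted p = 0.581).

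The gelatinase Mmp2 (ENSMUSG00000031740.8, chr8:92827291-92853420) was measured at 43.0, 31, 8.77 and 48.3 CPM in untreated replicates 1 to 4 and at 13.0, 13.2, 8.87, 10.8 and 13.8 CPM in TBI replicates 1, 3, 4, 5 and 6. In the IgG RIT libraries it stood at 30.3, 9.01 and 17.9 CPM, and in the CD45 RIT libraries at 627 and 718 CPM. The untreated libraries spanned the TBI and IgG RIT values, with replicate 3 the lowest of them. Mmp2 rose in CD45 RIT (4.36 ± 0.55, adjusted p = 0.000138). Mmp14, the membrane-bound metalloproteinase that activates the Mmp2 proenzyme, had the smallest rise of the group (3.09 ± 0.39, adjusted p = 0.000144) and overlapping values in the other groups, from 20.3 to 64.9 CPM.

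Cathepsin K (Ctsk), the collagen-cutting protease best known from osteoclasts, fell in TBI (-2.30 ± 0.40, adjusted p = 0.00807), from 7.61 to 22.8 to 2.00 to 5.45 CPM without overlap, and rose in CD45 RIT (3.36 ± 0.49, adjusted p = 0.000372) to 103 and 192 CPM. Of 5 osteoclast markers, Dcstamp was at 0 in all libraries, Ocstamp at 0 in every treated library, Calcr at 0 in TBI, and Atp6v0d2 had at most 5 counts in any library. The remaining marker, Acp5, stood at 118 to 149.7 CPM in untreated, 115 to 349.6 in TBI, 392 to 500.0 in IgG RIT and 69.8 to 73.6 in CD45 RIT. Adamts1, whose promoter is shown above, rose from 1.15 to 4.70 CPM in untreated to 126 and 101 CPM in CD45 RIT (5.24 ± 1.25, adjusted p = 0.00776), with 0.601 to 3.95 CPM in TBI and 0 to 8.25 in IgG RIT.

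The summed level of the group was 148 to 290.3 CPM of the total count in untreated, 92.0 to 113 in TBI, 71.1 to 149 in IgG RIT and 1685 and 3609.7 in the CD45 RIT libraries. Per stromal marker count this came to 0.113 to 0.135 in untreated, 0.328 to 1.34 in TBI, 0.225 to 0.305 in IgG RIT and 0.0734 and 0.134 in CD45 RIT.

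The 3 metalloproteinase inhibitors rose in CD45 RIT, Timp1 and Timp2 fell in TBI, and 0 of 3 were called in IgG RIT. There 1 (Timp1) had an unadjusted p under 0.05, as did 7097 of all 21509 genes tested. TIMP proteins bind the active site of metalloproteinases, and Timp2 also takes part in the activation of Mmp2. Timp2 (ENSMUSG00000017466.9, chr11:118301069-118355740) was measured at 44.9, 51.6, 27.9 and 35.7 CPM in untreated replicates 1 to 4 and at 6.12, 4.49, 5.82, 4.78 and 23.0 CPM in TBI replicates 1, 3, 4, 5 and 6. Levels were 19.9, 21.9 and 31.6 CPM in the IgG RIT libraries and 625 and 1573 CPM in the CD45 RIT libraries. TBI replicate 6 stood apart from the other 4 TBI libraries and came close to untreated replicate 3. Timp2 rose in CD45 RIT (4.78 ± 0.63, adjusted p = 0.000184) and fell in TBI (-2.19 ± 0.49, adjusted p = 0.0272). The TBI call was lost without any 1 of untreated replicates 1, 2 and 4 or TBI replicates 1, 3, 4 and 5 (adjusted p up to 0.0848) and with median-of-ratios factors (adjusted p = 0.0542).

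Timp1 (ENSMUSG00000001131.11, chrX:20870166-20874735) was measured at 7.54, 15.0, 8.51 and 7.24 CPM in untreated replicates 1 to 4 and at 2.02, 1.24, 3.10, 1.42 and 3.23 CPM in TBI replicates 1, 3, 4, 5 and 6. The IgG RIT libraries had 2.72, 5.28 and 4.78 CPM and the CD45 RIT libraries 116 and 265 CPM. No treated library fell within the untreated range. Timp1 rose in CD45 RIT (4.31 ± 0.50, adjusted p = 7.39e-05) and fell in TBI (-2.13 ± 0.40, adjusted p = 0.0115). It lies within Syn1 on the opposite strand, which had 461 counts in all libraries against 9158 for Timp1. Timp3 overlaps Syn3 on the opposite strand, which had 2655 counts in all libraries against 6520 for Timp3. Timp3, the inhibitor that stays bound to the matrix, had 14.6, 2.84, 3.54 and 10.1 CPM in untreated and 13.5 and 229 CPM in CD45 RIT, and was the 1 called gene of this group whose CD45 RIT libraries overlapped the untreated ones. Its call (3.96 ± 1.14, adjusted p = 0.0197) was lost without CD45 RIT replicate 2 (adjusted p = 0.612) and without untreated replicate 2 or 3.

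Summed over the group, the level was 48.3 to 84.1 CPM of the total count in untreated, 8.34 to 26.0 in TBI, 24.4 to 31.8 in IgG RIT and 531 and 1603 in the CD45 RIT libraries. Per stromal marker count the values were 0.0328 to 0.0498 in untreated, 0.0532 to 0.102 in TBI, 0.0482 to 0.0909 in IgG RIT and 0.0231 and 0.0597 in CD45 RIT.

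The CD45 RIT libraries differed from each other more for some roles than for others. Of the 38 members, 31 were higher in replicate 2 and 7 in replicate 1, and the median ratio of replicate 2 to replicate 1 was 2.03. The median ratio was 7.01 over 5 proteoglycans, with 11.0 for Fmod, 8.79 for Dcn and 7.01 for Lum, against 1.06 for Ogn. It was 0.888 over the elastic fibre genes, with 0.502 for Fbln5, and 1.71 over the basement membrane genes, with 0.981 for Nid2. Timp3 had the highest ratio of the tested members with counts above the floor in both libraries, 17.0. Replicate 2 also held more of the osteoblast markers (9113 against 2256 CPM), of the 4 chondrocyte markers (170.2 against 24.4 CPM) and of the 7 smooth muscle and pericyte markers (148 against 74.1 CPM). The 6 fibroblast markers were higher there as well (67.6 against 8.49 CPM). Stromal markers were closer between the 2 libraries (26870.3 against 22956 CPM). Replicate 1 held more erythroid markers (190868 against 47436 CPM) and more megakaryocyte and platelet markers (182 against 38.8 CPM). The part of these marker levels in the difference was not tested.

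**Figure D4:**
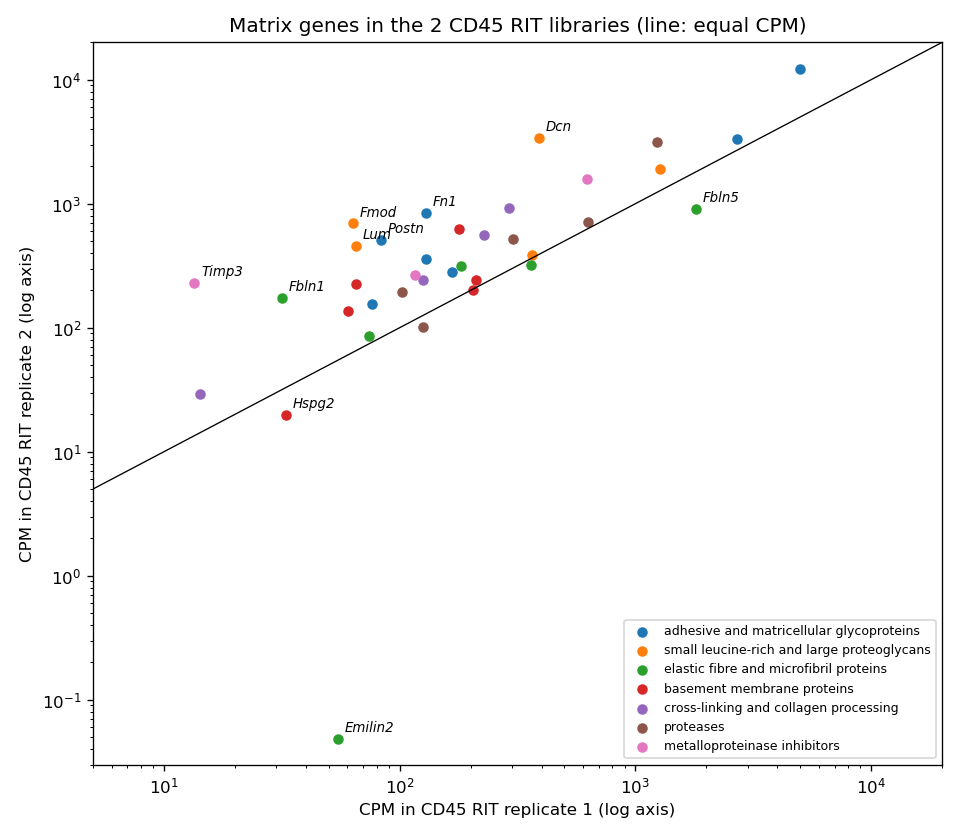
CPM of the matrix genes in CD45 RIT replicate 2 against replicate 1 on log axes, coloured by role, for the tested members with counts in both libraries; the line marks equal levels. Most points lie above the line, furthest for Timp3 and Fmod, while Fbln5 and Hspg2 lie below it and Emilin2 far below it.

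Set against the other irradiated groups, CD45 RIT was again higher for nearly all members. Against IgG RIT, which shares the activity and the day, 36 of 38 were called higher and 0 lower, with a median log2 fold change of 5.14 against -0.13 over all genes, of which 20.2% were called higher and 37.7% in either direction. Against TBI, 36 were called higher and 0 lower, with a median of 5.91 against -0.39, where 19.6% of all genes were called higher and 38.6% in either direction. The members not called were Emilin2 and Mfap4 in both, but DESeq2 called Emilin2 lower in CD45 RIT than in IgG RIT (adjusted p = 0.0148) and TBI (adjusted p = 0.0194). Tnc differed by 6.32 ± 0.55 (adjusted p = 9.41e-06) from IgG RIT and by 7.40 ± 0.46 (adjusted p = 6.66e-07) from TBI, and Fmod by 9.95 ± 1.56 (adjusted p = 0.000383) from TBI. With a fit on the 5 libraries of the RIT groups alone, 17 members were called between them. These comparisons share libraries with those against untreated and are not independent of them.

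Between IgG RIT and TBI, 28 of the 38 members had a log2 fold change above 0, as did 43.1% of all genes, with a median of 0.74 against -0.16 over all genes. The lowest adjusted p-values were those of Nid2 (2.75 ± 0.61, adjusted p = 0.0693), Ogn (1.5 ± 0.35, adjusted p = 0.0802), Fbln5 (1.96 ± 0.48, adjusted p = 0.0847) and Lamb1 (1.99 ± 0.55, adjusted p = 0.102), none past the threshold in edgeR and all 4 past it in DESeq2, which also called Vcan lower. Nid2 stood at 5.03, 3.09 and 11.1 CPM in IgG RIT and at 1.13, 0.795, 1.24, 1.42 and 0.0717 CPM in TBI, without overlap. Without TBI replicate 6, 6 members were called: Nid2, Ogn, Fbln5, Ctsk and Timp2 higher in IgG RIT and Emilin1 lower. The share of all genes called in that fit is not given here. No TBI library in it shared the higher library numbers, so treatment and any effect of the numbers cannot be told apart there. Without IgG RIT replicate 3, 1 was called, Postn, lower in IgG RIT (adjusted p = 0.0419). These genes were named after their values were seen.

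A wider list held 104 further non-collagen matrix genes, of which 93 were tested. In CD45 RIT 56 rose and 3 fell, so that 63.4% were called against 33.1% of all genes, with a median log2 fold change of 3.69. In TBI 0 rose, 21 fell and 72 were not called, 22.6% called against 4.31% of all genes (median -1.48). In IgG RIT 2 rose, 15 fell and 76 were not called, and 18.3% called was near the 16.4% of all genes (median -1.07). Against IgG RIT, CD45 RIT had 58 higher and 3 lower, and against TBI 65 and 2. Between IgG RIT and TBI 0 were called by edgeR and 6 by DESeq2. An unadjusted p under 0.05 was found for 14 of the 93 there, and for 3984 of all 21509 genes tested. Glycoproteins (18 of 30), proteoglycans (11 of 18), processing enzymes (9 of 14) and proteases and inhibitors (17 of 23) rose in CD45 RIT. Of the other basement membrane genes 1 of 8 was called higher and 7 of 8 had a log2 fold change above 0, where 14.5% of all genes were called higher. Differences between these classes were not tested.

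Only wider genes with a mean log2 CPM of 1 or more are ranked here. Among them, the largest called rise in CD45 RIT was that of Prelp, a leucine-rich proteoglycan. Its mean was 21.4 ± 2.69 CPM (SD, n = 4) in untreated and 984 ± 263 CPM (SD, n = 2) in CD45 RIT, a log2 change of 5.52 ± 0.61 (edgeR adjusted p = 5.23e-05). Next were the fibulin Efemp1 (5.45 ± 1.39, adjusted p = 0.0108) and Ltbp2, a microfibril protein related to fibrillins (4.91 ± 0.74, adjusted p = 0.000486). Of all wider genes, 3 were called lower in CD45 RIT. Srgn, the proteoglycan of blood cell granules, fell from 339 ± 26.2 CPM (SD, n = 4) in untreated to 26.2 ± 12.7 CPM (SD, n = 2) (-3.70 ± 0.38, edgeR adjusted p = 3.44e-05). The other 2 were genes of low level, Aspn and Mmp15, both at 0 in the CD45 RIT libraries and named after their values were seen. Ltbp2 fell in TBI (-3.22 ± 0.60, adjusted p = 0.0115), as did the glypican Gpc1 (-3.08 ± 0.39, adjusted p = 0.00185) and Mmp23 (-2.91 ± 0.53, adjusted p = 0.0101). In IgG RIT the 2 rises were those of the lysosomal cathepsin Ctsb (2.22 ± 0.41, adjusted p = 0.00534) and the transglutaminase Tgm2 (1.19 ± 0.23, adjusted p = 0.00576). The largest IgG RIT falls were those of the laminin gene Lamb2 (-3.11 ± 0.87, adjusted p = 0.0299), Mmp19 (-2.65 ± 0.79, adjusted p = 0.0377) and Adamts10 (-2.54 ± 0.56, adjusted p = 0.0105). Those of Lamb2 and Mmp19 were not called in a fit on the 7 libraries compared and were lost on leaving out several single libraries.

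Since the stromal marker sum moved with the matrix genes, each gene was also expressed per count of the 11 stromal markers. All members together had 1.21 to 1.95 in untreated, 2.37 to 11.8 in TBI, 1.39 to 2.86 in IgG RIT and 0.538 and 1.05 in CD45 RIT counts per stromal marker count. On this scale 2 of the 38 members, Adamts1 and Lama4, were higher in both CD45 RIT libraries than in every untreated library, where 0.637% of all tested genes were. Adamts1 had 0.000855 to 0.00270 counts per marker count in untreated and 0.00291 to 0.00386 in CD45 RIT, and Lama4 0 to 0.00134 and 0.00200 to 0.00653. In 9 members (Ctsk, Emilin1, Emilin2, Loxl1, Mfap2, Mfap4, Mmp14, Pcolce and Sparc) both CD45 RIT libraries were lower than every untreated one, against 77.5% of all genes, and the other 27 overlapped. In TBI 11 members were higher without overlap and 0 lower, against 59.1% of all genes higher and 0.0651% lower; in IgG RIT 3 were higher (Emilin2, Mmp13 and Timp2) and 1 lower (Emilin1), against 35.8% higher and 5.14% lower of all genes. The ratio describes these libraries and gives no levels per cell, since Cxcl12 dominates the marker sum.

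**Figure D5:**
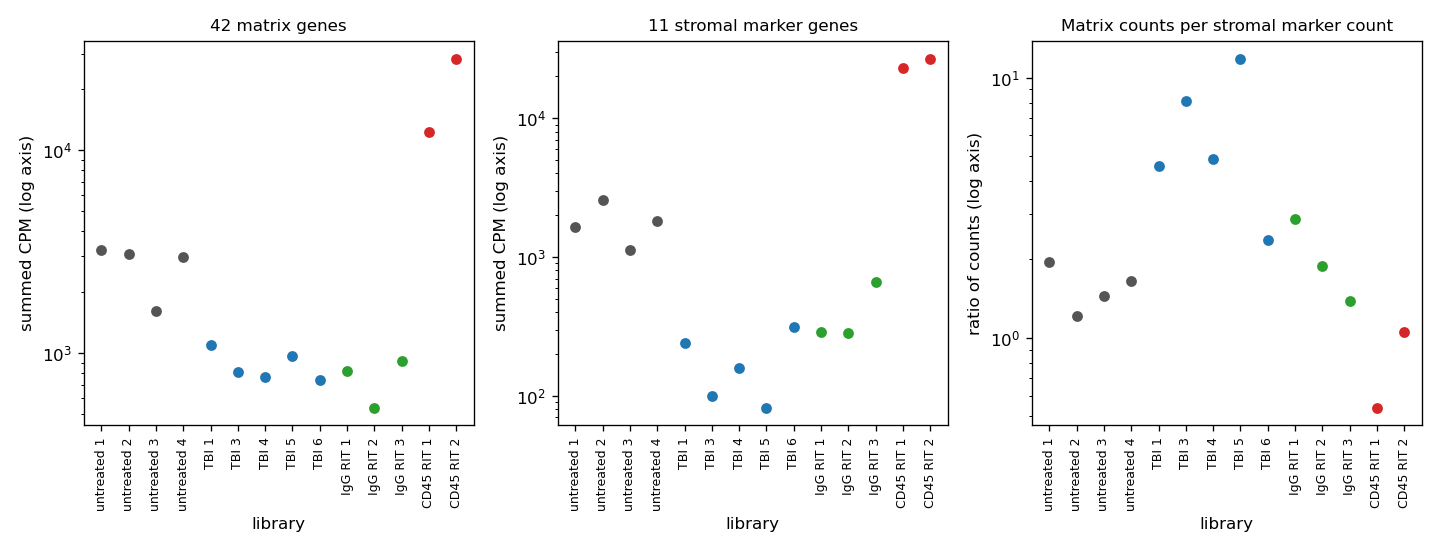
Summed CPM of the 42 matrix genes (left) and of the 11 stromal marker genes (middle) and the ratio of their counts (right) in each library, on log axes, coloured by group. Both sums are highest in the CD45 RIT libraries and lowest in TBI and IgG RIT, while the ratio is lowest in CD45 RIT (0.538 and 1.05). It reaches its highest values in TBI (2.37 to 11.8), whose range overlaps that of IgG RIT (1.39 to 2.86).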

How the data were processed

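Libraries were made from sorted marrow cells (Qiagen micro kit for RNA, SMART-Seq v4 for full-length cDNA, Nextera XT for the library), per the labels' protocols. These libraries carry no molecular identifiers, so floors cover counting error only, and the kit does not mark strand. The authors deposited whole-number counts per gene with gene lengths, 1 table for the 14 libraries, with no normalization visible in the values. STAR 2.7.7a, FastQC 0.11.9 and edgeR 3.36.0 are named in the submitters' processing notes, which also name the build hg38; the deposited gene coordinates are mouse ones, and all 54587 gene identifiers that matched GENCODE M21 with their version had the same position there, so GRCm38 is given. The counter, its use of strand and its handling of shared reads are not given in the sources used here. Table columns were matched to libraries by name.

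Genes were filtered with filterByExpr on the groups (minimum count 10, minimum total 15; 21509 genes) and fitted with edgeR 4.0.16 in R 4.3.3 (TMM factors, robust quasi-likelihood fit, 1 coefficient per group in all 14 libraries), with Benjamini-Hochberg adjustment over all tested genes in each of 6 comparisons; genes with adjusted p under 0.05 were called. The SE is |log2 fold change| over the root of F. CPM of single genes uses the TMM-scaled library size, and sums use the total count. No fold change is given where 1 in 2 or more libraries of a group had 3 counts or fewer, since it would rest on the prior. The fit was tested on simulated counts. Deposited gene lengths, equal to the exon union for 41 of the 41 members matched with their version, gave CPM per kb. DESeq2 1.42.0, RLE factors, no scaling, no filter, a replicate block, fits on 2 groups and leaving out each library were tried. The members, gene lists and tests were chosen with earlier results of these data known. Values in every library are given for the 2 of each role with the highest mean CPM, and of the wider lists the 3 largest called rises and falls against untreated (mean log2 CPM 1 or more) are named. Promoter sequences are RefSeq's on GRCm38.p6.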

Additional observations from a re-analysis of the deposited data

Results flagged for a closer look

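In 76 sets of 4 or 5 libraries (38 members in the untreated and TBI groups), the gap of the highest or lowest library on the log2 CPM scale was set against the range of its group by Dixon's test, and 8 values stood apart, 3 in untreated replicate 3 and 5 in TBI replicate 6; chance would flag about 1 in 20 sets. In untreated replicate 3, the calcium-binding glycoprotein Sparc was the lowest of its group at 428 CPM against 1227 to 1245 CPM in the others, as were Tnc at 79.0 CPM against 129 to 135 CPM in the others and the microfibril protein Mfap2 at 3.84 CPM against 11.8 to 14.6 CPM in the others. This library was the lowest of the 4 for 20 of the 38 members, and its stromal markers summed to the lowest level of its group, 1122 CPM. In TBI replicate 6, 3 genes were high: the inhibitor Timp2 at 23.0 CPM against 4.49 to 6.12 CPM in the others, cathepsin K (Ctsk) at 5.45 CPM against 2.00 to 2.63 CPM in the others and Thbs2 at 4.52 CPM against 1.67 to 2.07 CPM in the others. The same library was low for 2 basement membrane genes, Nid2 at 0.0717 CPM against 0.795 to 1.42 CPM in the others and Lamc1 at 1.65 CPM against 9.28 to 12.6 CPM in the others. It was the highest TBI library for 17 of the 38 members and lowest for 5, and its stromal markers summed to 311 CPM, the highest of its group. The part of the marker levels in these values was not tested.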

How the results depend on the processing

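With RLE (median-of-ratios) factors, without a filter on low counts, and in DESeq2 or fits on only the libraries of the 2 groups compared, the counts of called members and wider matrix genes stayed within 1.5 times those given, with these exceptions. Without scaling factors, 16 members and 29 wider genes were called between IgG RIT and untreated. With only the RIT libraries in the fit, 17 members and 25 wider genes were called between CD45 RIT and IgG RIT. DESeq2 called 5 members and 6 wider genes between IgG RIT and TBI. RLE factors moved the median log2 fold change of all genes by 0.12 in TBI, 0.21 in IgG RIT and 0.24 in CD45 RIT against untreated, and no scaling by -0.12, -0.52 and -0.71.

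Same-numbered libraries deviated together weakly at most. Of 13 pairs 1 had a correlation above 0.1 (range -0.0896 to 0.139), and 3 of 14 libraries correlated best with their own number. The median correlation was 0.0225 for the same number and -0.00928 for other numbers. Deviations of the 2 CD45 RIT libraries from their mean mirror each other, so this check cannot exclude a weak pairing. The numbers were not taken as pairs, since nothing in the labels says that they mark a shared animal, litter or day. With the replicate number as a block, 1 member and 0 wider genes were called between TBI and untreated, 2 members between IgG RIT and untreated, and 1 wider gene between IgG RIT and TBI. Between CD45 RIT and untreated, the block ended the calls of Postn, Thbs1, Lum, Dcn, Fmod, Fbln1, Mfap2, Hspg2, Loxl2, Adamts1 and Timp3.

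Leaving out 1 library at a time gave 29 to 38 called members in CD45 RIT, 10 to 17 in TBI and 4 to 9 in IgG RIT against untreated, 31 to 38 between CD45 RIT and IgG RIT, 35 to 38 between CD45 RIT and TBI and 0 to 6 between IgG RIT and TBI. For wider genes the ranges were 50 to 65, 12 to 21, 10 to 15, 53 to 66, 62 to 71 and 0 to 11 in the same order. A count moved by over 1.5 times without TBI replicate 5 (10 members and 13 wider genes in TBI), untreated replicate 2 (12 wider genes in TBI, 5 members in IgG RIT), untreated replicate 4 or IgG RIT replicate 1 (5 members in IgG RIT), IgG RIT replicate 2 (4 members and 10 wider genes), TBI replicate 6 (6 members and 11 wider genes between IgG RIT and TBI) and IgG RIT replicate 3 (1 member). With CD45 RIT replicate 1 or 2 alone, the lone library is assumed to vary like the other groups.

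Of the log2 fold changes printed and recomputed, 4 changed sign, all uncalled and of IgG RIT against untreated, and the cause was not tested. Thbs1 (-0.33) became 0.252 without IgG RIT replicate 2 (leave-one-out range -1.97 to 0.252). Thbs2 (-0.09) became 0.114 with RLE factors, 0.0261 without the filter, 0.114 in DESeq2, 0.188 with only the 2 groups fitted, 0.135 without untreated replicate 1, 0.173 without IgG RIT replicate 2 and 0.189 without IgG RIT replicate 3 (leave-one-out range -0.876 to 0.189). Mgp (0.09) became -0.439 without scaling factors, -0.134 without untreated replicate 3, -0.131 without untreated replicate 4, -0.179 without IgG RIT replicate 1 and -0.138 without IgG RIT replicate 2 (leave-one-out range -0.179 to 0.668). Adamts1 (0.42) became -0.115 without scaling factors and -0.659 without IgG RIT replicate 3 (leave-one-out range -0.659 to 1.01). Mfap4, for which no fold change is printed in CD45 RIT, was called lower without CD45 RIT replicate 1 and higher than IgG RIT and TBI without replicate 2. With 2 to 5 libraries a group, a member that was not called may still differ.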
